A study of Mus musculus with 6 samples.

Results

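The 10 genes described here, Elovl1, Elovl2, Elovl3, Elovl5, Elovl6, Elovl7, Fads1, Fads2, Fads3 and Fads6, encode enzymes that lengthen fatty acids or put double bonds into them. They were taken from the deposited table by matching its Ensembl identifiers to these symbols, and all 10 were found among 55401 genes. The libraries were made from poly(A) RNA of fresh liver of C57BL/6 mice, an inbred laboratory strain. Of these, 3 libraries (HFCF) came from livers of animals fed much fat, cholesterol and fructose, and 3 (OP) from animals given okra polysaccharide, plant carbohydrate taken from okra. Which diet the OP animals ate, and the age and sex of either group, are not in the labels. Nor is it stated that each library is its own mouse, and a p-value here therefore reflects only library-to-library spread, some of which may be technical.

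Fatty acid synthase stops at palmitate. Longer chains are made in the endoplasmic reticulum by a cycle of condensation, reduction, dehydration and a last reduction, in which the ELOVL proteins carry out the condensation and so select the substrate. The FADS desaturases take electrons from cytochrome b5 and, alternating with ELOVL5 and ELOVL2, turn the essential dietary fatty acids into arachidonate and docosahexaenoate. The liver is a main site of this synthesis, and SREBP-1c, LXR and PPAR-alpha are known regulators of several of these genes.

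Total counts ran from 46459980 to 61918541 per library. Levels are given as CPM, counts scaled to a common TMM-adjusted library size, and differences as log2 fold changes of OP relative to HFCF with their standard error (SE), with n = 3 libraries per group and SDs over those 3. The share of counts in mitochondrially encoded mRNAs was 18.3 ± 4.01% in HFCF and 9.31 ± 4.44% in OP, and OP replicate 3 (14.4%) lay beside HFCF replicate 3 (14.1%) on this measure. The summed level of 8 hepatocyte markers was 37777 to 60229 CPM in HFCF and 59680 to 87291 CPM in OP (Ttr higher, Cps1 lower), and 4 of 6 red cell markers, all globins, were lower in OP. None of the 7 markers each of cholangiocytes, Kupffer cells, endothelium or stellate cells passed. Of 10 adipocyte markers, 7 were tested and 1, Pparg, passed, and the summed level of the list was 26.5 to 48.7 CPM in HFCF and 50.7 to 125 CPM in OP. Within that list, Cfd (0, 0.104 and 3.32 CPM in HFCF, 12.2, 26.5 and 63.0 CPM in OP) and Cidea (0, 0 and 0.396 CPM in HFCF, 2.20, 1.59 and 2.44 CPM in OP) were higher in every OP library than in any HFCF library without passing (edgeR, adjusted p = 0.0626 and 0.0783). Adipoq was at 0 in HFCF replicates 1 and 2 and in OP replicate 1, and Lep in all HFCF libraries and in OP replicate 1. In bulk tissue, fewer cells of a type and less RNA per cell cannot be told apart.

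No elongase or desaturase gene passed the test between OP and HFCF livers. All 10 were abundant enough to be tested, and 0 of 10 reached the threshold of 0.05 by edgeR (quasi-likelihood test, p-values adjusted after Benjamini and Hochberg over 17394 genes), where 6.73% of all tested genes were called, 3.26% higher and 3.47% lower in OP. At an unadjusted p under 0.05 there were 3 genes, Fads1 and Fads2 with higher means in OP and Fads3 with a lower mean, and 25.2% of all tested genes were under this threshold. DESeq2 called 2 of the 10, both higher, where it called 1252 higher and 1262 lower of 15311 genes. With limma-voom 0 of the 10 were called. The median log2 fold change was -0.03 over the 10 genes and 0.02 over all tested genes. Only Fads3 and Fads6 had groups that did not overlap, both lower in OP, against 31.2% of all tested genes with groups that did not overlap, 15.8% higher and 15.4% lower.

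**Figure D1:**
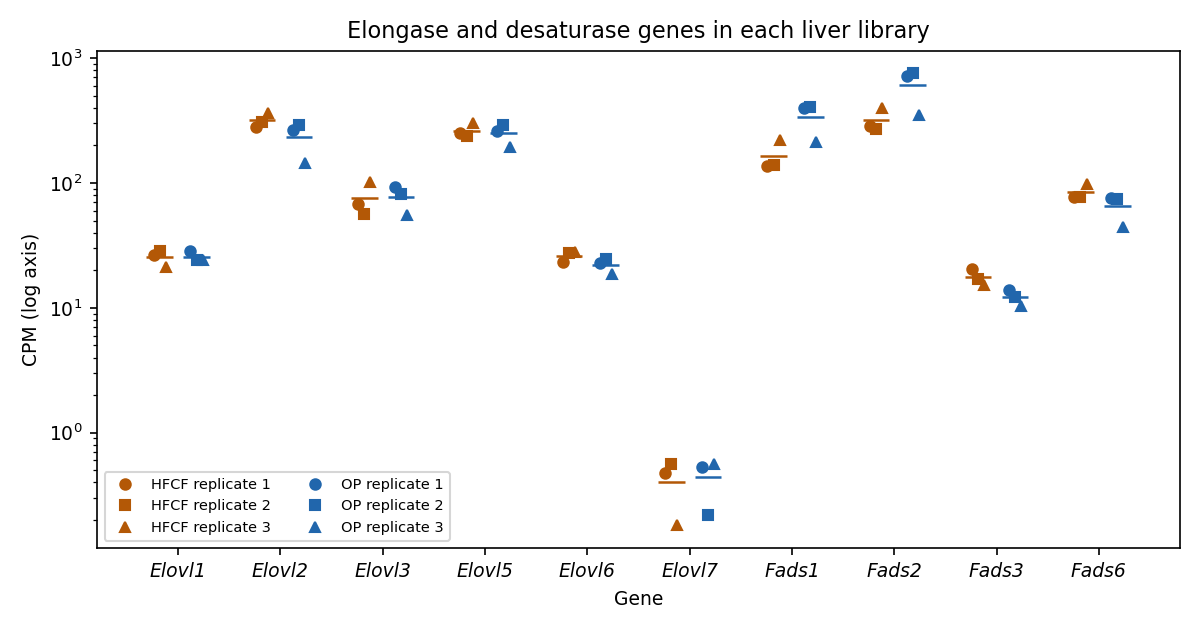
CPM of the 10 genes (log axis) in each library, with HFCF in orange and OP in blue, one marker shape per replicate number and a bar at each group mean. OP replicates 1 and 2 stood above every HFCF library for Fads1 and Fads2, and OP replicate 3 stood among the HFCF libraries.

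Among the desaturases, Fads2 encodes the delta-6 desaturase, the first step from dietary linoleate and alpha-linolenate. Its level was 286, 269 and 396 CPM in HFCF replicates 1 to 3 and 717, 755 and 349.9 CPM in OP replicates 1 to 3. OP replicates 1 and 2 were close to each other and above all HFCF libraries, while OP replicate 3 lay below HFCF replicate 3. The log2 fold change was 0.94 ± 0.295 (SE), a 1.92-fold difference of means, with a 95% interval of 0.26 to 1.61 and an adjusted p = 0.092 by edgeR. Fads1 encodes the delta-5 desaturase, which acts after one elongation on the products of FADS2. It was at 138, 138 and 221 CPM in HFCF and 396, 404 and 212 CPM in OP, so the same library of each group stood apart from its group as for Fads2. The log2 fold change was 1.03 ± 0.286 (2.04-fold, 95% interval 0.37 to 1.68, adjusted p = 0.0681 by the same edgeR test).

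In the edgeR fits with a library left out, Fads1 passed only without replicate 3 of either group and Fads2 only without OP replicate 3. With all 6 libraries, both passed with DESeq2, and Fads1 passed with edgeR on counts divided by 4. Without OP replicate 3, Fads1 had a log2 fold change of 1.27 and Fads2 of 1.22, and both passed (edgeR, adjusted p = 0.0261 and adjusted p = 0.0193). Without HFCF replicate 3, Fads1 was at 1.29 (adjusted p = 0.0496, same edgeR test) and Fads2 at 1.13 (adjusted p = 0.0886). Leaving out any of the other 4 libraries gave log2 fold changes of 0.87 to 0.91 for Fads1 and 0.75 to 0.87 for Fads2, and neither passed.

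The levels of Fads1 followed the order of the libraries by their mitochondrial mRNA share. From the highest share to the lowest the order was HFCF replicate 1 (22.0%), HFCF replicate 2 (18.8%), OP replicate 3 (14.4%), HFCF replicate 3 (14.1%), OP replicate 1 (7.48%) and OP replicate 2 (6.08%), and Fads1 increased at each of these steps. This order was looked up after the values were seen, and 184 tested genes, 1.06% of all, increased strictly along it. Fads2 had the same order apart from HFCF replicates 1 and 2, which changed places. When the share entered the edgeR model as a covariate, the log2 fold change was 0.06 ± 0.207 for Fads1 (adjusted p = 0.913) and -0.05 ± 0.266 for Fads2 (adjusted p = 0.941). The share itself went largely with the group, so share and treatment cannot be told apart in these 6 libraries.

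**Figure D2:**
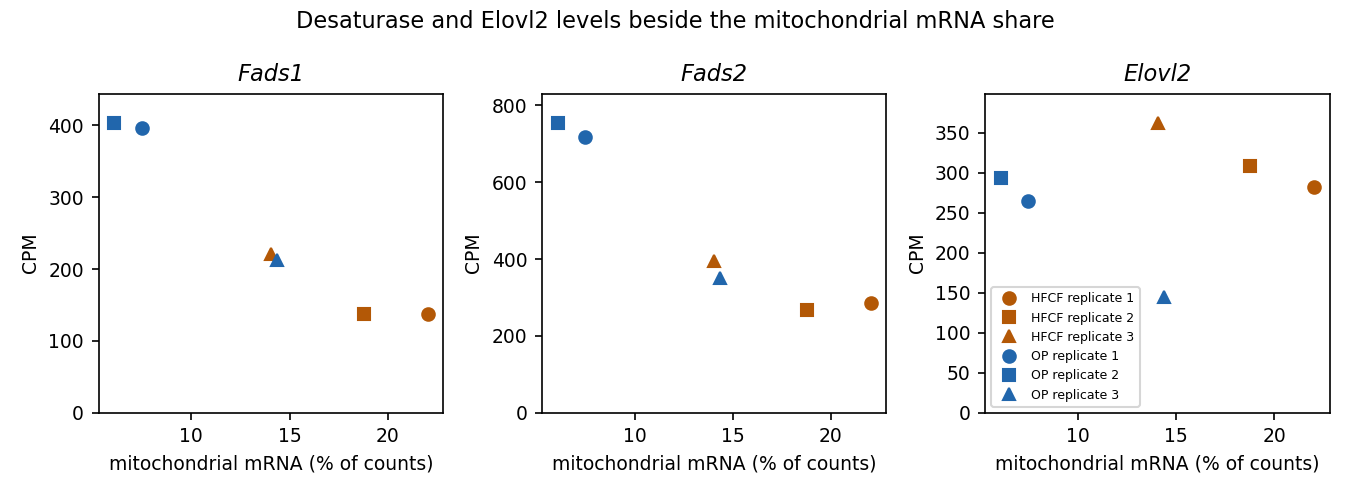
CPM of Fads1, Fads2 and Elovl2 in each library against the percentage of counts in mitochondrially encoded mRNAs, with HFCF in orange and OP in blue and one marker shape per replicate number. For Fads1 and Fads2 replicate 3 of HFCF and replicate 3 of OP lie side by side near 14% of counts, while for Elovl2 HFCF replicate 3 is the highest and OP replicate 3 the lowest of the 6.

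Fads3, a paralogue known to act on sphingoid bases, had lower values in OP than in HFCF in every library. It was at 20.6, 17.1 and 15.2 CPM in HFCF and 13.9, 12.3 and 10.3 CPM in OP. The log2 fold change was -0.53 ± 0.178 (95% interval -0.94 to -0.13), with an adjusted p = 0.105 by edgeR, and it stayed between -0.64 and -0.41 whichever library was left out, without passing. Fads6, a family member whose substrate is not well defined, was at 77.3, 77.2 and 97.5 CPM in HFCF and 76.1, 74.2 and 44.8 CPM in OP. Its groups were barely separate, with OP replicate 1 close below HFCF replicate 2. Its log2 fold change was -0.37 ± 0.219 (adjusted p = 0.34, edgeR), and -0.16 without OP replicate 3.

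Fads3, Fads2 and Fads1 lie next to each other on chromosome 19 in RefSeq, followed by Fen1, Tmem258 and Myrf, with Rab3il1 on the other side of Fads3. Of 8 genes listed around this cluster 7 were tested and none passed. The 3 with the smallest p were Myrf, a membrane-bound transcription factor, at 24.4, 25.2 and 26.4 CPM in HFCF and 8.05, 13.5 and 19.9 CPM in OP (adjusted p = 0.099, edgeR), the ferritin heavy chain gene Fth1 at 1076 ± 136 and 1565 ± 262 CPM (adjusted p = 0.114, edgeR), and Fen1, a nuclease of DNA replication, at 1.69 ± 0.491 and 2.63 ± 0.577 CPM (adjusted p = 0.278, edgeR). Log2 fold changes of genes in this region thus had both signs. Sequence before the RefSeq starts of Fads2 and Fads3 is shown because these adjacent genes differed in sign, but the windows are unlike: GENCODE M21 places 243 of the 250 bases before the Fads2 start in exons, and 0 of 250 for Fads3. The stretches are 5′ to 3′ from RefSeq on GRCm38.p6, an older build than the GRCm39 named by the submitters. That of Fads2, from the largely exonic window, is 30 bases on the minus strand (chr19:10101672-10101701), and that of Fads3 is the 250 bases before its start on the plus strand (chr19:10041298-10041547). Capitals mark matches to GGGCGG or CCAAT on either strand.
Fads2: cgggcctagggtGGGCGGaggaaggggacc
Fads3: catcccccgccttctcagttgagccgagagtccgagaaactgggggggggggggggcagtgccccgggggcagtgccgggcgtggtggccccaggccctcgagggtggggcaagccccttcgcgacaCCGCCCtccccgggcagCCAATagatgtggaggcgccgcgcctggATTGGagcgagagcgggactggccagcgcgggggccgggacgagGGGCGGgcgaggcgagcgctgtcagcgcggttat

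Windows of 250 bases before a start were at hand for 8 of the 10 genes (10 windows), without Elovl3 and Fads1. GGGCGG stood in 7 of the 10 windows, against 32.7% of 32851 windows of all genes, and CCAAT in 3 of 10, against 33.8%. Those with GGGCGG were both windows of Elovl1, 1 of Elovl2 and those of Elovl7, Fads2, Fads3 and Fads6. Their share of G and C ran from 58.0% (an Elovl1 window) to 87.2% (Elovl2). Base composition was not taken into account in the comparison with all windows. The E-box CACGTG was found in Elovl5 alone among the 10 windows and in 6.02% of all windows. The Fads2 window held 1 GGGCGG and no CCAAT, and the Fads3 window held 2 of each, which is no comparison of promoters, since the Fads2 window is mostly annotated exon. GENCODE exons also covered 129 bases of the Elovl6 window, 101 of that of Fads6, 51 and 2 of those of Elovl2 and 1 of that of Elovl5. TCACNCCAC, a form of the sterol regulatory element that SREBP binds, and the direct repeats of AGGTCA that PPAR and LXR bind were in none of the 10 windows and in 1.05%, 0.0335% and 0.0152% of all windows. Both strands were searched, GGGCGG and CCAAT matches did not overlap in the Fads3 window, and a match describes letters only.

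Of the elongases that act on polyunsaturated fatty acids, Elovl5 extends the products of FADS2 and Elovl2 extends longer chains. Elovl5 was at 250.2, 238 and 301 CPM in HFCF and 262, 290.4 and 195 CPM in OP, with overlapping groups. Its log2 fold change was -0.08 ± 0.182, and the 95% interval of -0.49 to 0.34 does not reach a 2-fold difference in either direction (adjusted p = 0.837, edgeR). Elovl2 was at 282, 309 and 363 CPM in HFCF and 264, 294 and 145 CPM in OP, and OP replicate 3 was far below the other 5 libraries. The log2 fold change was -0.44 ± 0.253 (95% interval -1.02 to 0.14, adjusted p = 0.324, edgeR) and -0.19 without OP replicate 3. Fitted together with the mitochondrial share it was -1.29 ± 0.238, with an adjusted p = 0.0568 in the same edgeR test.

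Elovl6, which extends palmitate to stearate after fatty acid synthase, was at 23.3, 27.5 and 27.9 CPM in HFCF and 22.9, 24.6 and 18.6 CPM in OP. The log2 fold change was -0.25 ± 0.157 (95% interval -0.61 to 0.11, adjusted p = 0.361, edgeR), and the groups overlapped. Elovl1, an elongase of saturated very long chains used in sphingolipids, was at 26.6, 28.4 and 21.2 CPM in HFCF and 28.7, 24.0 and 24.4 CPM in OP. This was the elongase with the narrowest spread among those near 0, with a log2 fold change of 0.02 ± 0.159 (95% interval -0.35 to 0.38). Elovl3 extends saturated and monounsaturated chains and is known in the liver for daily rhythm and for higher levels in males. It was at 67.8, 56.4 and 102 CPM in HFCF and 93.4, 81.5 and 55.5 CPM in OP, with replicate 3 the highest of HFCF and the lowest of OP. Its log2 fold change was 0.03 ± 0.261 (95% interval -0.57 to 0.62, adjusted p = 0.965, edgeR), and it was 0.31 without HFCF replicate 3, 0.22 without OP replicate 3 and -0.02 to -0.18 without any of the others. Elovl7 was hardly detected, with 11 to 27 counts in HFCF and 14 to 32 in OP, and its 95% interval of -1.40 to 1.62 shows that no moderate difference could be resolved at this depth.

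OP replicate 3 was the lowest of the 6 libraries for 6 of the 10 genes (Elovl2, Elovl3, Elovl5, Elovl6, Fads3 and Fads6), as it was for 18.8% of all tested genes. HFCF replicate 3 was the highest for 5 of them (Elovl2, Elovl3, Elovl5, Elovl6 and Fads6), as for 12.7% of all tested genes. Against the mean of OP replicates 1 and 2, OP replicate 3 differed by -1.07 (log2) for Fads2, -0.94 for Elovl2, -0.91 for Fads1 and -0.75 for Fads6, and 9 of 10 members were below 0, where the median of all tested genes was -0.02 and 51.2% were below 0. These positions were counted after the values were seen, and depth, tissue sampling and individual variation as sources of the spread were not tested.

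**Figure D3:**
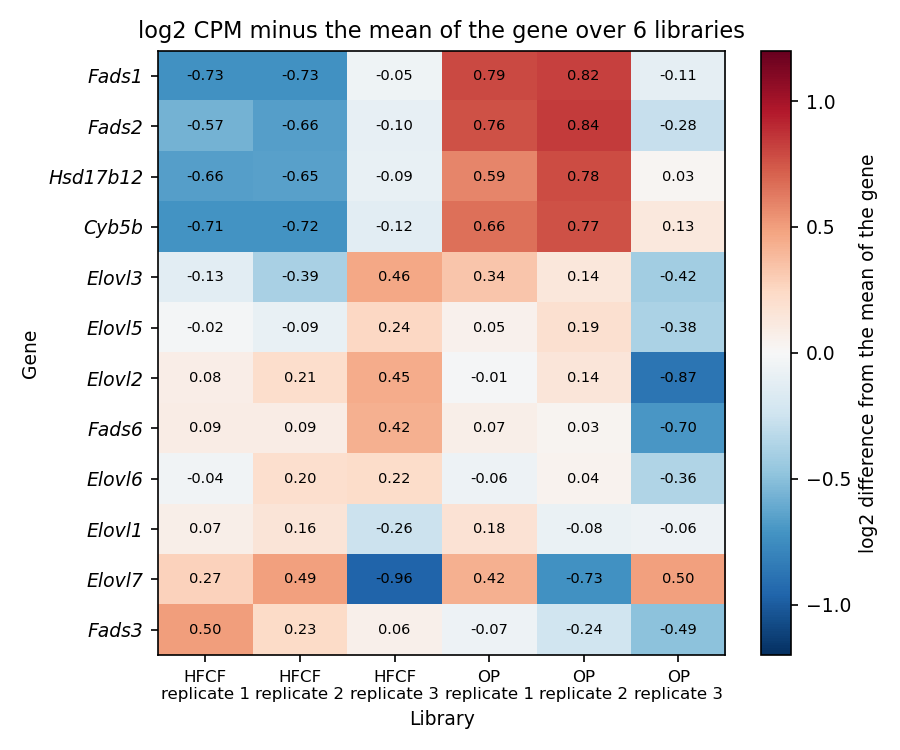
log2 CPM of each gene minus its own mean over the 6 libraries, for the 10 genes and for Hsd17b12 and Cyb5b, with libraries in columns and red for higher, blue for lower. Fads1, Fads2, Hsd17b12 and Cyb5b are low in HFCF replicates 1 and 2, near their mean in replicate 3 of both groups and high in OP replicates 1 and 2.

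Per kilobase of exon sequence, Fads2 had the highest level in both groups. In HFCF the order was Fads2 (96.2 CPM per kilobase, range 81.5 to 120.2), Elovl2 (80.2 ± 10.4), Elovl5 (74.7 ± 9.41), Elovl3 (38.2, range 28.6 to 51.6), Fads1 (34.4 ± 9.90), Fads6 (12.6 ± 1.76), Elovl1 (9.32 ± 1.37), Fads3 (4.65 ± 0.732), Elovl6 (4.08 ± 0.401) and Elovl7 (0.101 ± 0.0497). The ranges of the first 3 overlapped from one gene to the next, as did those of Elovl3 and Fads1 and those of Fads3 and Elovl6. In OP, Fads2 was at 184 ± 67.9 CPM per kilobase and its range no longer met that of the next gene, Elovl5 (70.8 ± 13.9), while Fads1 (70.1 ± 22.5) stood between Elovl5 and Elovl2 (59.1 ± 19.8) with overlapping ranges.

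Ratios of 2 genes within a library do not depend on how libraries are scaled. Fads3 was at 0.0722, 0.0637 and 0.0383 counts per count of Fads2 in HFCF and at 0.0194, 0.0163 and 0.0295 in OP, a difference of means of -1.41 on the log2 scale with groups that did not overlap. Elovl2 was at 1.13, 1.30 and 1.21 counts per count of Elovl5 in HFCF and 1.01, 1.01 and 0.743 in OP, a difference of -0.41, again without overlap. For both the two-sided exact permutation p was 0.1, the smallest that 3 against 3 libraries allow, and 0.25 after adjustment over the 5 ratios, so neither can be called.

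**Figure D4:**
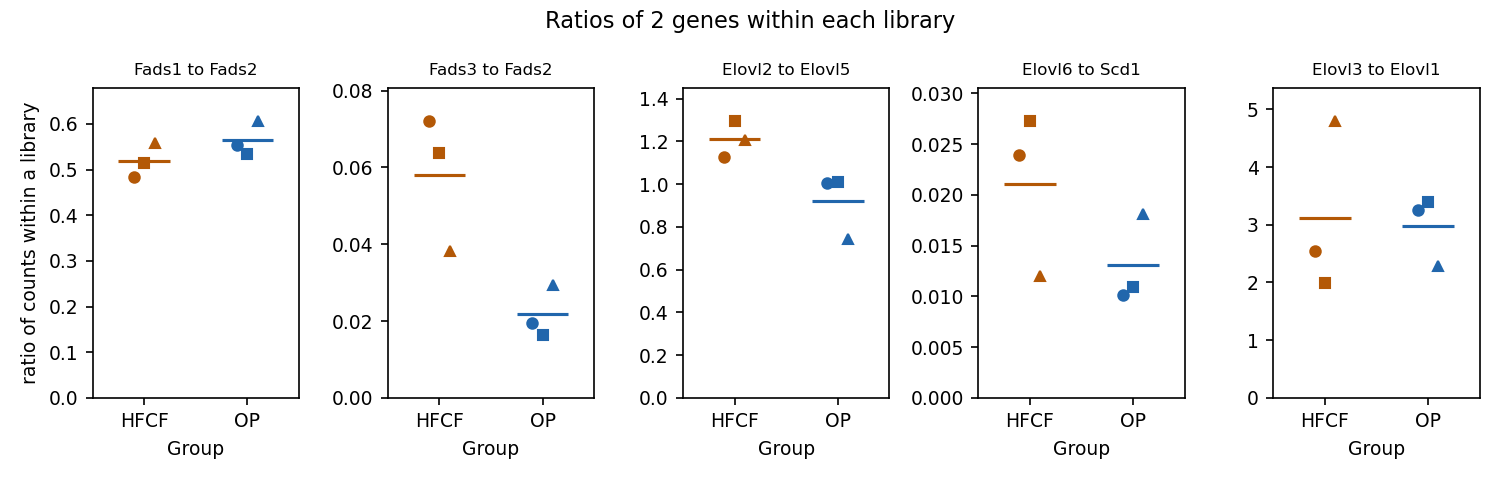
Ratio of the counts of 2 genes within each library, with HFCF in orange and OP in blue, one marker shape per replicate number and bars at group means, on axes that start at 0. The groups do not overlap for Fads3 to Fads2 and for Elovl2 to Elovl5, and they overlap for the other ratios.

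The ratio of Fads1 to Fads2 was 0.483, 0.514 and 0.557 in HFCF and 0.553, 0.535 and 0.607 in OP. It varied far less than either gene, and its difference of 0.12 (log2) had an exact permutation p of 0.3. Elovl6 per count of Scd1 (0.0211 ± 0.00802 in HFCF, 0.0131 ± 0.00438 in OP, exact permutation p = 0.2) and Elovl3 per count of Elovl1 (3.11 ± 1.49 and 2.97 ± 0.606, exact permutation p = 1) overlapped between groups. Adjusted over the 5 ratios these p-values were 0.375, 0.333 and 1.

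The remaining enzymes of the same kind did not pass either. Scd1, the delta-9 desaturase that makes oleate, was at 972, 1009 and 2320 CPM in HFCF and 2259, 2249 and 1026 CPM in OP, so HFCF replicate 3 lay with OP replicates 1 and 2, and OP replicate 3 with HFCF replicates 1 and 2 (log2 fold change 0.36 ± 0.408, adjusted p = 0.628, edgeR). Of 8 listed relatives 4 were tested and 0 were called in either direction. Degs1, the ceramide desaturase gene, was at 42.7 ± 6.74 and 34.9 ± 5.41 CPM (adjusted p = 0.334, edgeR) and Scd2 at 4.73 ± 1.13 and 3.86 ± 1.27 CPM (adjusted p = 0.598). Elovl4, Scd3 and Scd4 had at most 4, 8 and 15 counts in a library, and Fads2b had 0 counts in each, which allows up to 0.0472 to 0.0624 CPM, the level of 3 counts on the same TMM-adjusted scale, for counting error only. This limit takes each read pair as 1 count and would be higher if a pair contributed more, which is uncertain here.

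The partners that complete the elongation cycle are the ketoacyl-CoA reductase gene Hsd17b12, the dehydratase genes Hacd1 to Hacd4 and the enoyl-CoA reductase gene Tecr. Of 6 tested none passed and 5 had log2 fold changes above 0, with a median of 0.25, against 0.02 over all tested genes. Hsd17b12 was at 45.4, 45.6 and 67.5 CPM in HFCF and 108, 123 and 73.0 CPM in OP, without overlap, and its log2 fold change of 0.94 ± 0.237 had an adjusted p = 0.0524 by edgeR. Without OP replicate 3 it was 1.13 (adjusted p = 0.0281, same edgeR test), without HFCF replicate 3 it was 1.16 (adjusted p = 0.0398), and fitted together with the mitochondrial share it was 0.19 (adjusted p = 0.652). Hacd1 was at 4.25 ± 0.452 and 5.52 ± 0.275 CPM (adjusted p = 0.277, edgeR) and Hacd2 at 31.3 ± 6.05 and 38.5 ± 4.80 CPM (adjusted p = 0.335).

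**Figure D5:**
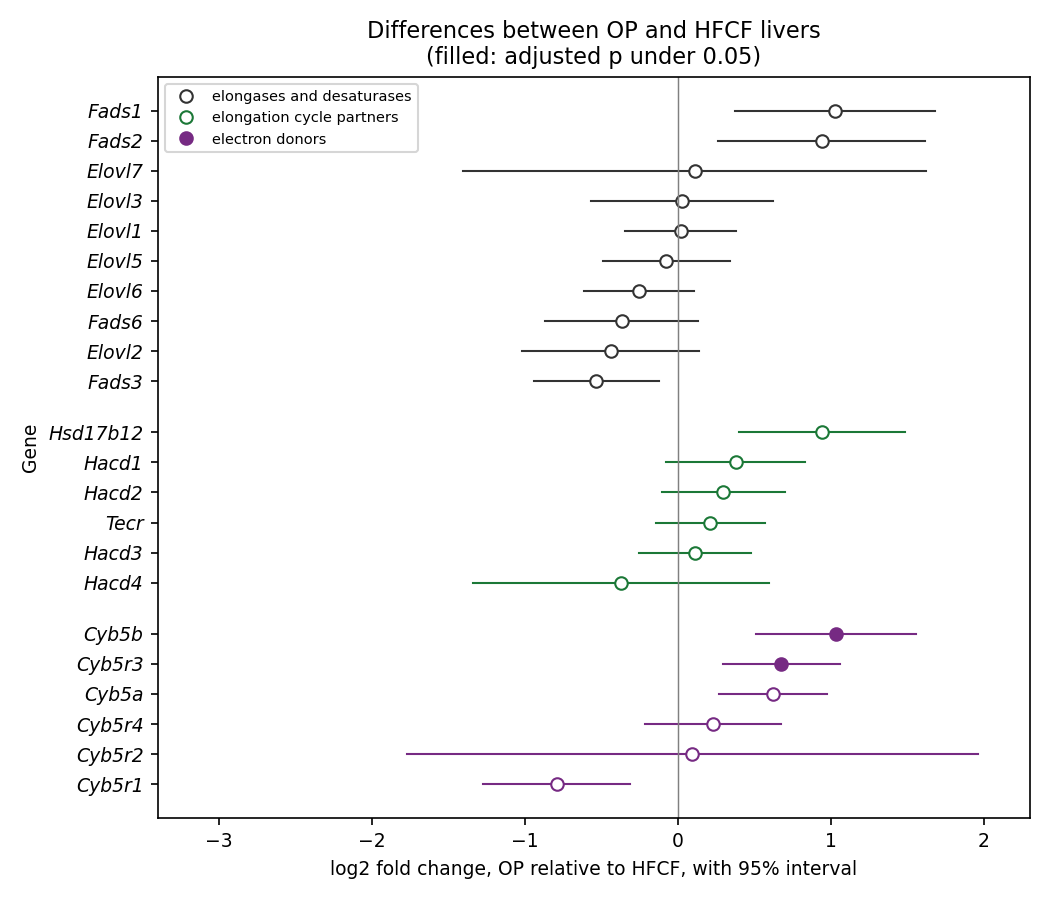
log2 fold change of OP relative to HFCF with its 95% interval for the 10 elongase and desaturase genes (black), their elongation cycle partners (green) and the genes listed as electron donors of the desaturases (purple), with filled points at an adjusted p under 0.05. The only filled points are Cyb5b, whose product lies in the outer mitochondrial membrane, and Cyb5r3.

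Of the 6 genes listed as electron donors of the desaturases, 2 rose and 4 did not pass, where 3.26% of all tested genes rose. Their log2 fold changes were above 0 for 5, with a median of 0.42, against 0.02 over all tested genes. Whether each of the 6 genes serves the desaturases was not tested. Cyb5b, the outer mitochondrial membrane cytochrome b5, was at 86.4, 85.9 and 130.2 CPM in HFCF and 224, 241 and 155 CPM in OP, a rise of 1.04 ± 0.229 (log2) with an adjusted p = 0.036 by edgeR. Cyb5r3, the cytochrome b5 reductase, rose from 138 ± 19.1 to 221 ± 33.2 CPM (0.68 ± 0.167, adjusted p = 0.0489, edgeR). Cyb5a, the cytochrome b5 of the endoplasmic reticulum, was at 817 ± 91.7 and 1258 ± 79.0 CPM, just outside the threshold (adjusted p = 0.0503, edgeR). Cyb5r1, looked up afterwards, was lower in every OP library, at 10.2, 16.8 and 16.5 CPM in HFCF and 8.20, 8.79 and 8.10 CPM in OP. Its log2 fold change of -0.79 ± 0.211 did not pass (adjusted p = 0.0603, edgeR). The calls of Cyb5b and Cyb5r3 were lost without HFCF replicate 1 or 2 or OP replicate 1 or 2. Over all alternatives, these included, Cyb5b was lost in 8 and kept in 7, and Cyb5r3 was lost in 9 and kept in 6. Fitted together with the mitochondrial share, the log2 fold changes were 0.34 for Cyb5b and 0.36 for Cyb5r3, and neither passed.

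By the likeness of their profiles over the 6 libraries, measured as the root mean square difference of log2 CPM after centring each gene on its mean, the genes nearest to Fads1 among 11869 were Ces2e, a carboxylesterase gene (0.0891), Slc46a1, a folate transporter gene (0.0956), and Fads2 (0.102). Looked up afterwards, Hsd17b12 was the fifth (0.110) and Cyb5b was in place 7 (0.116). The other 8 elongase and desaturase genes were farther away, from Elovl3 at 0.501 in place 2555 to Elovl7 at 1.02 in place 10551.

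Across all 8 lists around the family, 7 of 62 tested genes rose and 0 fell, with 20 above and 6 below 0 at an unadjusted p under 0.05. Of all tested genes, 3.26% rose and 3.47% fell, and 13% were above and 12.2% below 0 at the unadjusted threshold. DESeq2 called 12 genes of the lists higher and 4 lower, where it called 1252 higher and 1262 lower of 15311 genes. The genes that rose by edgeR were Cyb5b, Cyb5r3, Pparg, Thrsp, Acsl1, Acsl3 and Acaa1b. With each library left out in turn, Thrsp passed in 6 of 6 fits, Acsl3 in 3, Acsl1, Acaa1b, Cyb5b and Cyb5r3 in 2 each and Pparg in 1, and all but Thrsp were lost when replicate 1 or 2 of HFCF or replicate 1 of OP was left out. Over all alternatives, left-out libraries included, Thrsp passed in 15 and was lost in 0. Acsl3 was lost in 5, Acaa1b in 6, Acsl1 in 7, Cyb5b and Pparg in 8 each and Cyb5r3 in 9. Among the acyl-CoA synthetases, which activate fatty acids before elongation or desaturation, 2 of 7 tested rose: Acsl3 went from 8.94, 10.7 and 10.6 CPM to 21.8, 18.3 and 21.3 CPM (log2 fold change 1.02 ± 0.151, adjusted p = 0.0105, edgeR), with a narrow spread in both groups, and Acsl1, the main liver form, had 784, 769 and 964 CPM against 1457, 1374 and 1555 CPM (0.80, adjusted p = 0.027). Slc27a5, a bile acid and very long chain acyl-CoA synthetase gene, was at 517 ± 52.3 and 632 ± 93.9 CPM (adjusted p = 0.322, edgeR), and Acsl4, which prefers arachidonate, at 26.0 ± 2.29 and 24.5 ± 3.15 CPM (adjusted p = 0.77, edgeR). In the list for fatty acid synthesis, Thrsp, a promoter of lipogenesis, rose and the other 8 tested genes did not pass. Thrsp was at 8.83, 9.65 and 9.25 CPM in HFCF and 106, 45.4 and 59.5 CPM in OP (2.92 ± 0.301, adjusted p = 0.0034, edgeR). Fasn, fatty acid synthase itself, was at 39.2 ± 6.19 and 71.0 ± 21.5 CPM (adjusted p = 0.0606, edgeR), and the citrate carrier gene Slc25a1 at 101 ± 18.3 and 146 ± 23.2 CPM (adjusted p = 0.117).

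Of the 13 transcription regulators, Pparg rose from 4.92 ± 1.91 to 13.1 ± 4.45 CPM (adjusted p = 0.0467, edgeR) and 12 did not pass. This call held in 1 of 6 fits with a library left out, that without HFCF replicate 3 (adjusted p up to 0.186 in the others, edgeR), and was lost with RLE scaling, no low-count filter or the mitochondrial covariate. Pparg also stands in the adipocyte list, whose levels are given above, and their part in its rise was not tested. Mlxip, at 19.6 ± 3.78 and 12.2 ± 0.593 CPM, and Insig2, which holds back SREBP processing, at 101 ± 9.29 and 66.2 ± 9.68 CPM, did not pass (edgeR, adjusted p = 0.051 and adjusted p = 0.0572). Of 9 peroxisomal genes for the last steps of docosahexaenoate synthesis, Acaa1b, a thiolase gene with a close copy, rose by 0.90 (adjusted p = 0.0231, edgeR) and 8 did not pass, with all 9 log2 fold changes above 0 and a median of 0.40. Among all tested genes, 3.26% rose and the median log2 fold change was 0.02. The transporter gene Abcd2 was at 9.42 ± 5.24 and 19.8 ± 6.77 CPM (adjusted p = 0.141, edgeR). Of 8 tested acyltransferase genes that place polyunsaturated chains in phospholipids, 0 passed, and the median of the list was -0.09. Lclat1 was at 21.3, 21.5 and 27.3 CPM in HFCF and 30.7, 33.1 and 23.2 CPM in OP, Lpcat3 at 66.8 ± 5.54 and 78.3 ± 5.54 CPM, and Mboat7 at 15.6 ± 2.56 and 19.4 ± 5.62 CPM (edgeR, adjusted p = 0.323, 0.332 and 0.442). Over the 8 lists, the numbers of genes called without single libraries ranged from 1 to 10 higher and from 0 to 2 lower, with 1 higher when HFCF replicate 1, HFCF replicate 2 or OP replicate 1 was left out and 3 when OP replicate 2 was.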

How the data were processed

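Per the labels' protocols, poly(A) RNA of mouse liver was made into dUTP libraries and sequenced in pairs on an Illumina NovaSeq. The submitters' processing notes name cutadapt 1.9, FastQC and GRCm39; the aligner, the counter and whether strand was used: not given in the sources used here. As deposited, the values are whole-number counts by gene, 1 column a library. Counts of 4 (827 to 930 genes a library) outnumbered counts of 3 (427 to 558) and of 5 (233 to 311), which leaves uncertain how many counts a single read pair contributes.

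Groups came from the labels. Genes were matched by Ensembl identifier to symbols (55141 of 55401). Counts were filtered with filterByExpr, scaled by TMM and compared by the quasi-likelihood test of edgeR 4.0.16 in R 4.3.3 (glmQLFTest, two-sided); Benjamini-Hochberg adjustment covered 17394 genes, with a threshold of 0.05. The SE is the fold change over the square root of F, and the 95% intervals use the degrees of freedom of the fit. Exon lengths, overlaps and the exon check of promoter windows used GENCODE M21 on GRCm38; shared exon bases of the 10 genes with others, on the opposite strand, were 53 for Elovl1 (Cdc20), 10 for Elovl3 (Pitx3) and 34 for Elovl6 (Gm35986). Ratios were tested by exact permutation (scipy 1.17.1). The scripts were tested on simulated counts, with spreads estimated from these libraries. The edgeR test called 84 of 100 genes with a simulated 4-fold difference and 30 of 100 with a 2-fold difference. It called 7 of 16555 genes simulated without a difference. A gene that did not pass here may therefore still differ by 2-fold.

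The 10 genes and all lists were chosen with earlier results of these data known. Named genes were the 10 members, members of the pathway, neighbour, clock and male-biased lists that passed or had the 3 smallest p, and the 3 genes nearest to Fads1 in profile, apart from a list member that is not reported here; others are said to have been looked up afterwards, and Acsl4, Elovl4, Scd3, Scd4, Fads2b and the single cell type markers (Ttr, Cps1, Cfd, Cidea, Adipoq, Lep) were named as context after their values were seen. Alternatives were DESeq2 1.42.0, limma-voom (limma 3.58.1), RLE scaling, total counts, no low-count filter, a replicate block, mitochondrial genes left out, the mitochondrial mRNA share as a covariate, counts divided by 4 and each library left out.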

Additional observations from a re-analysis of the deposited data

How the results depend on the processing

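Of the 10 genes, the number higher in OP was 0 and became 2 with DESeq2 (Fads1, Fads2) and 1 with counts divided by 4 (Fads1), and ranged from 0 to 2 over the libraries left out; the number lower was 0 throughout. For all genes, 567 higher and 603 lower became 1252 and 1262 with DESeq2, 298 and 400 with no low-count filter, 87 and 93 with the replicate block, 110 and 97 with the mitochondrial covariate, and 34 to 655 and 54 to 655 with single libraries left out (52 and 60 without HFCF replicate 1, 34 and 54 without HFCF replicate 2, 86 and 117 without OP replicate 1). In the 8 surrounding lists, 7 higher became 12 with DESeq2, 3 with no filter, 2 with the replicate block, 1 with the covariate and 1 to 10 with libraries left out. The 0 lower became 4 with DESeq2, 3 with counts divided by 4, 1 with RLE scaling, limma-voom or mitochondrial genes left out, and 0 to 2 with libraries left out. The cause was not tested.

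The replicate numbers are not stated to pair the samples. Deviations from the group means correlated at 0.02, -0.13 and -0.16 for numbers 1, 2 and 3, and no sample correlated best with its own number. Deviations from a mean of 3 libraries depend on each other, so these correlations cannot settle whether samples were paired. With the replicate block Fads1 was at 1.02 and Fads2 at 0.89 (edgeR, adjusted p = 0.204 and 0.248).

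Signs turned as follows, for genes that passed in no setting apart from Fads2. Under the mitochondrial covariate, the log2 fold changes were -0.70 for Elovl3, -1.001 for Scd1, -0.010 for Hacd2, -0.14 for Hacd3, 0.028 for Hacd4 and, for Fads2, which passed with DESeq2 and without OP replicate 3, -0.053. Elovl1 was at -0.0017 with counts divided by 4, and it ranged from -0.10 to 0.072 with libraries left out (-0.07 without OP replicate 1). Elovl3 was at -0.04, -0.18, -0.14 and -0.02 without HFCF replicate 1, HFCF replicate 2, OP replicate 1 and OP replicate 2 (highest 0.31), Elovl5 at 0.03 and 0.072 without HFCF or OP replicate 3 (lowest with any library left out -0.20), Elovl7 at -0.25, -0.06 and -0.10 without HFCF replicate 3, OP replicate 1 and OP replicate 3 (highest 0.44), Hacd3 at -0.032 without OP replicate 2 (highest 0.22) and Hacd4 at 0.0016 without HFCF replicate 2 (lowest -0.57). With libraries left out, the log2 ratio differences ran from 0.07 to 0.18 for Fads1 to Fads2, -1.69 to -1.23 for Fads3 to Fads2, -0.48 to -0.26 for Elovl2 to Elovl5, -1.02 to -0.43 for Elovl6 to Scd1 and -0.26 to 0.38 for Elovl3 to Elovl1, where the sign turned in 4 of 6 cases (-0.08, -0.26, -0.06 and -0.09).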

Other observations

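Elovl3 is known for its daily rhythm and its higher level in males, so lists of clock and male-biased genes were set beside it. Of 15 clock genes, Per2 rose from 31.3 ± 2.18 to 95.6 ± 32.9 CPM, Cry2 fell from 50.1 ± 4.84 to 26.9 ± 6.74 CPM, Nr1d1, the repressor REV-ERB alpha, fell from 93.0 ± 14.4 to 53.7 ± 11.2 CPM, and 12 did not pass (edgeR, adjusted p = 0.0131, 0.0373 and 0.0488 in that order). Over all tested genes, 6.73% were called in either direction. With each of the 6 libraries left out in turn, Per2 passed in 3 fits (lost when replicate 1 or 2 of HFCF or replicate 1 of OP was left out, adjusted p up to 0.0992, edgeR), Cry2 in 1 (without OP replicate 3) and Nr1d1 in 0. Per2 also did not pass with the replicate block or the mitochondrial covariate, and Cry2 and Nr1d1 did not pass with the block, total counts or no low-count filter. The time of day of sampling is not named in the labels. Of 12 genes listed as male-biased, Gstp1, a glutathione transferase gene, fell from 1987 ± 94.1 to 711 ± 122 CPM, Cyp2u1, a cytochrome P450 gene, rose from 24.9 ± 0.796 to 60.4 ± 5.36 CPM, and 10 did not pass (edgeR, adjusted p = 0.00529 and 0.00345 for Gstp1 and Cyp2u1). The share over all tested genes is again 6.73%. Cyp4a12a was at 226 ± 46.3 and 126 ± 28.3 CPM (adjusted p = 0.0541, edgeR). The level of Elovl3 overlapped between the groups throughout.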
